A study of Mus musculus with 18 samples.

Results

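Eutopic endometrium of PRCre mice that carried an endometriotic lesion was set against the uterus of PRCre mice that had no surgery. The members are the arrays whose titles give these tissues and this genotype, 3 of each, or 6 of the 18 arrays of the series. The study compared PRCre mice with ERBOE mice, in which oestrogen receptor beta is overexpressed, in uterus, eutopic endometrium and ectopic lesions. PRCre is a line in which Cre recombinase is driven from the progesterone receptor locus, present as PRCre/+ in both groups used here, and it served as the control genotype without the overexpression. The eutopic group came from PRCre females that received, at 8 weeks of age, a single 2 mm fragment of uterus from a wild-type C57BL/6J mouse and were sampled at estrus in week 4 afterwards. The uterus group came from PRCre females of 12 weeks at estrus. Each array carried RNA pooled from 3 animals, and 9 animals made up a group. The groups therefore differed in the implanted lesion, in surgery itself and in the tissue named, and these cannot be told apart. No sham-operated group is among the arrays used here. The account of the eutopic samples also has ectopic lesions harvested before it has RNA of eutopic endometria combined, and the titles were followed.

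The uterus is a muscular tube, the myometrium, lined by an endometrium of luminal and glandular epithelium over stroma. Through the estrous cycle oestrogen, acting mainly through oestrogen receptor alpha, induces secretory genes of the epithelium such as Ltf and drives epithelial division, while progesterone induces Indian hedgehog (Ihh) in the epithelium and its target genes in the stroma. In endometriosis, tissue like endometrium grows outside the uterus, and the lining that stays in the uterus, called eutopic, is studied for what it shares with the lesions. A comparison of eutopic endometrium with uterus in the control genotype asks how the uterus of a lesion-bearing mouse differs from that of an untouched one.

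A level below is the log2 processed signal of a gene's brightest probe minus the 75th percentile of its array, so 0 stands for the signal at that percentile. Levels rank arrays for the same probe and not genes against each other. The 75th percentile signal was 237.3 on PRCre uterus 1 and between 451.4 and 740.0 on the other 17 arrays, the share of probes detected well above background lay between 53.1% and 73.0%, and no array had a saturated spot (0 in all). Over the features tested, arrays correlated at 0.946 to 0.960 within the eutopic group, at 0.931 to 0.961 within the uterus group and at 0.932 to 0.965 between the groups. The first principal component of the 6 arrays held 35.0% of the variance and put eutopic 2 (-65.01), eutopic 3 (-17.49) and uterus 1 (-106.34) on its negative side, with eutopic 1, uterus 2 and uterus 3 on the other. Arrays of different groups were thus as much alike as arrays of the same group. Uterus 1 shared a slide with eutopic 1 and 2, uterus 2 shared a slide with eutopic 3, and uterus 3 lay on a slide with no PRCre eutopic array.

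No gene separated PRCre eutopic endometrium from PRCre uterus after adjustment. In a limma model over all 18 arrays with Benjamini-Hochberg adjustment, 0 of 33178 features passed an adjusted p of 0.05, and the smallest adjusted p was 0.738. At an unadjusted p under 0.05 there were 2215 features, 6.68% of those tested, with 846 higher (2.55%) and 1369 lower (4.13%) in eutopic endometrium. The groups did not overlap for 1195 features that were higher (3.6%) and 2132 that were lower (6.43%) on all 3 eutopic arrays. The split towards lower features moved with the scaling: at the same unadjusted threshold it was 1321 higher against 933 lower after quantile normalization and 1028 against 801 after median centring. At all, 46.7% of features were higher and 53.3% lower, and the median difference was -0.03. Precision was limited by the 3 arrays of each group: with the measured spread, simulated shifts of 1 log2 unit were recovered for 12% of features, those of 2 units for 52% and those of 4 units for 92%.

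None of the receptor genes separated the groups. Esr1, which encodes oestrogen receptor alpha, read 3.81, 3.10 and 3.95 on the 3 eutopic arrays, against 3.64, 3.74 and 3.75 on the 3 uterus arrays, a difference of -0.09 ± 0.33 (eutopic minus uterus, limma SE, adjusted p = 0.978). Esr2, the gene of oestrogen receptor beta, read 2.53, 2.15 and 2.63 in eutopic endometrium and 2.83, 2.74 and 2.54 in uterus, a difference of -0.27 ± 0.20 (adjusted p = 0.836). Pgr, the progesterone receptor gene that carries the Cre driver, read 1.28, 0.40 and 1.99 on eutopic arrays and 0.69, 2.81 and 2.68 on uterus arrays, a difference of -0.84 ± 0.59 (adjusted p = 0.828). The groups overlapped for all 3 genes, and Pgr was low on eutopic 2 and uterus 1 and high on uterus 2 and 3. Within the slides that held both groups, the Pgr difference was -0.82 and 0.15, that of Esr1 was 0.21 and -0.18 and that of Esr2 was -0.11 and -0.49. Of the coregulators, Ncoa3, a coactivator of nuclear receptors, read 2.55, 2.74 and 2.52 in eutopic endometrium, against 1.94, 1.81 and 2.07 in uterus, a difference of 0.66 ± 0.20 (unadjusted p = 0.00585). Ncor1, a nuclear receptor corepressor, read 2.83, 2.80 and 2.67, against 1.96, 2.40 and 2.48 in uterus, a difference of 0.49 ± 0.19 (unadjusted p = 0.0222). Both probes were higher on every eutopic array without passing adjustment. The 2 other Ncoa3 probes above the filter went the same way, but of 4 other Ncor1 probes only 2 did, with differences from -0.46 to 0.31, so Ncor1 has no settled direction. Of 24 receptor and coregulator genes tested, 14 were higher and 10 lower.

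The 15 genes higher on all 3 eutopic arrays with the smallest p did not pass (limma adjusted p = 0.738 for each), and their folds ran from 1.72 to 4.74. They were led by Fbln1, which encodes fibulin-1, a glycoprotein of the extracellular matrix. Fbln1 read 3.27, 2.66 and 2.93 in eutopic endometrium, against 1.28, 1.33 and 1.52 in uterus, a difference of 1.57 ± 0.31 or 2.98-fold (unadjusted p = 0.000134). The groups lay more than 1 log2 unit apart, and the difference was 1.51 with slide as a block and 1.60 and 1.68 within slides 2 and 3. Cx3cl1, which encodes the membrane-bound chemokine fractalkine, read 1.49, 2.59 and 2.44 on eutopic arrays and 0.15, 1.05 and 0.03 on uterus arrays, a difference of 1.76 ± 0.39 or 3.4-fold. The groups came closest between eutopic 1 and uterus 2. Dusp4, a phosphatase that inactivates MAP kinases, read -2.50, -1.62 and -3.79, against -5.47, -4.0 and -5.18 in uterus. It had the largest fold of the 15, 4.74, but was well above background on only 1 uterus array. Its difference was 0.50 log2 units with another background correction, normexp, against 2.245 without it. Camsap3, which holds microtubule minus ends in epithelial cells, read 1.42, 2.31 and 2.27 in eutopic endometrium and 0.71, 0.55 and 0.66 in uterus, a difference of 1.36 ± 0.33.

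The other higher genes differed by 0.78 to 1.47 log2 units. Crybg2 (1.47 ± 0.29), Fam20a, which encodes a pseudokinase of the secretory pathway (1.23 ± 0.31), and Rgs9, a regulator of G protein signalling (1.06 ± 0.23), differed by 1 log2 unit or more, as did the predicted gene Gm11696 (1.08 ± 0.27). With normexp background correction Crybg2 and Gm11696 differed by only 0.60 and 0.31, while Fam20a and Rgs9 differed by 1.22 and 1.01. Crybg2 was well above background on 2 of the 3 uterus arrays. Syne2, the gene of the nuclear envelope protein nesprin-2, read 3.34, 3.46 and 2.81 on eutopic arrays and 1.87, 2.24 and 2.33 on uterus arrays. Akap13, an anchoring protein for protein kinase A, read 2.44, 2.46 and 2.20 in eutopic endometrium, against 1.11, 1.41 and 1.46 in uterus. Zfhx3, a homeodomain transcription factor gene, differed by 1.01 ± 0.26, Trp53bp2, which encodes the p53-binding apoptosis regulator ASPP2, by 0.98 ± 0.24, and Tpcn1, a cation channel gene of endosomes and lysosomes, by 0.96 ± 0.24. The kinase gene Mink1 differed by 0.89 ± 0.23 and Wbp2, a coactivator of steroid receptors, by 0.78 ± 0.20. Of 2 other Wbp2 probes above the filter, only 1 went the same way, with differences from -0.17 to 0.88.

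The 15 genes lower on all 3 eutopic arrays with the smallest p included several near background in eutopic endometrium. Plppr5, a neuronal gene related to lipid phosphatases, read -5.80, -6.70 and -6.48 on eutopic arrays, where it was not well above background on any, against -2.52, -4.27 and -3.37 on the 3 uterus arrays, so it was at least 2.52-fold lower, where a bound of this kind sets the mean of the bright group against the lowest signal called above background on each array of the dim group. Cyp3a59 and Cyp3a57, cytochrome P450 genes of the 3A family, were lower too. Cyp3a59 was not well above background on any eutopic array and at least 2.3-fold lower, measured on 2 of 3 uterus arrays. Cyp3a57 read -4.40, -4.69 and -5.54 in eutopic endometrium, against -2.17, -2.48 and -1.82 in uterus, a difference of -2.72 ± 0.61. These genes are close relatives, and probes of such genes can share target RNA. The RIKEN gene 4930554G24Rik was not well above background in eutopic endometrium and at least 2.2-fold lower, measured on 2 uterus arrays.

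Of the brighter genes lower in eutopic endometrium, Rbm3, the gene of a cold-inducible RNA-binding protein, read 2.94, 3.31 and 3.95 on eutopic arrays and 4.96, 4.46 and 4.42 on uterus arrays, a difference of -1.21 ± 0.29. Of its 3 other probes above the detection filter, 2 went the same way and 1 did not. Clec14a, which encodes a surface protein of endothelial cells, read -1.61, -2.06 and -1.99, against -0.47, -0.91 and -1.0 in uterus, a difference of -1.09 ± 0.25. Nostrin, which regulates the traffic of endothelial nitric oxide synthase, read -4.06, -3.59 and -3.70 in eutopic endometrium and -2.78, -1.88 and -1.79 in uterus, a difference of -1.63 ± 0.41. Both genes were chosen for being lower on every eutopic array. Of 35 endothelial and angiogenic genes tested, Clec14a among them, 2 (5.71%) were lower without overlap, against 6.43% of all features. Lrrc4c, a synaptic adhesion gene, differed by -1.85 ± 0.47 and Septin10, a septin of the cytoskeleton, by -0.87 ± 0.21. Ccdc59 (-0.73 ± 0.17) and the predicted genes Gm19557 (-1.44 ± 0.30), Gm9767 (-1.88 ± 0.46) and Gm5176 (-0.97 ± 0.24) made up the list with the RIKEN genes 9430065F17Rik (-2.23 ± 0.48) and 4930503H13Rik (-1.26 ± 0.31). Among the 30 genes and the 3 receptors, 13 had other probes above the filter, and 20 of these 24 probes differed in the same direction.

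**Figure D1:**
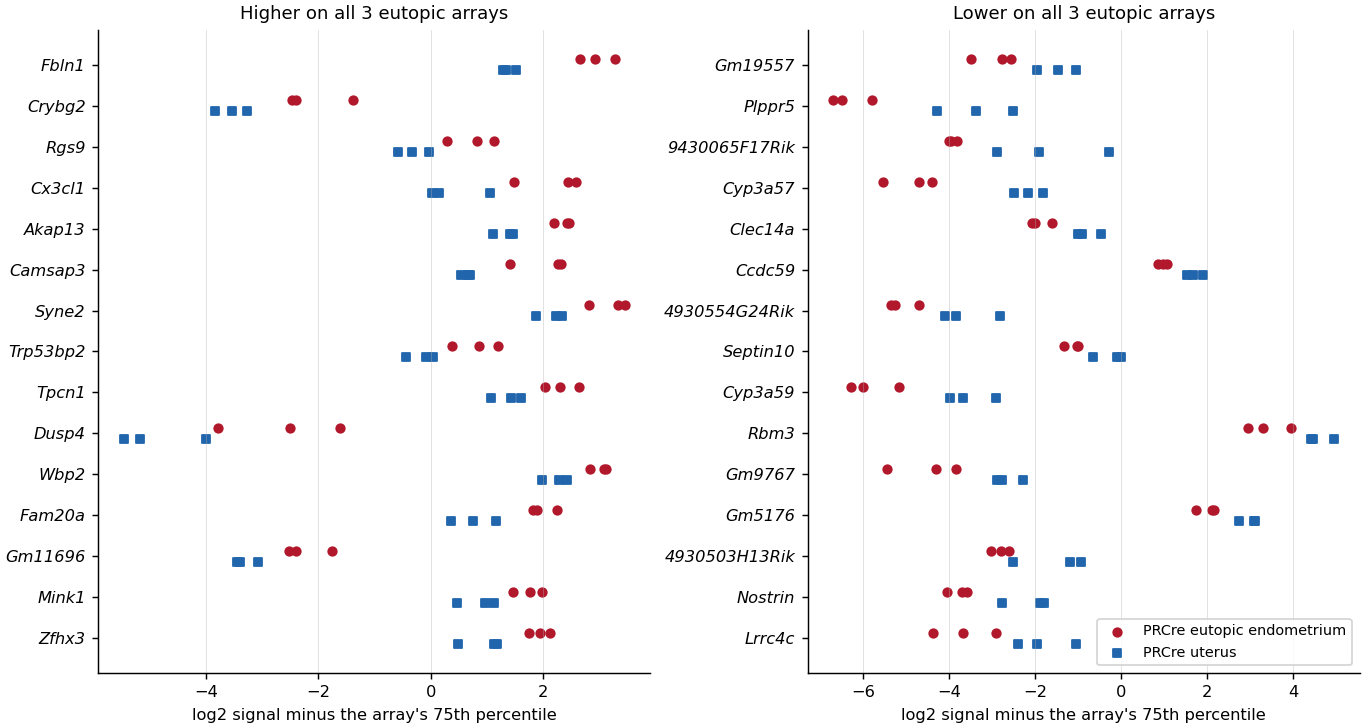
Levels (log2 signal minus the array's 75th percentile) on the 3 PRCre eutopic arrays (red circles) and the 3 PRCre uterus arrays (blue squares) of the 15 genes with the smallest p in each direction among those whose groups do not overlap. Genes run down each panel by p, and Fbln1 shows a wide gap on the left while Dusp4 and 4930503H13Rik have groups that nearly touch.

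The tissue names were checked against marker genes, and the eutopic pools did not read as endometrium freed of muscle. Acta2, the smooth muscle actin gene, read 8.38, 6.97 and 7.39 on eutopic arrays and 6.64, 7.51 and 8.18 on uterus arrays. Myh11, the smooth muscle myosin heavy chain gene, read 4.96, 3.74 and 3.29, against 2.71, 3.26 and 3.86 in uterus. Both were highest on eutopic 1, and the groups overlapped. Of 35 smooth muscle markers tested, 24 were higher and 11 lower in eutopic endometrium, by a median of 0.19. That median was -0.05 without eutopic 1, 0.42 without eutopic 2, 0.03 without uterus 1 and 0.34 without uterus 3. The summed level of the list, log2 of the sum over markers, was 10.74, 10.01 and 9.98 on eutopic arrays and 10.15, 10.11 and 10.47 on uterus arrays. In pooled tissue, a different number of cells and a different amount of RNA per cell cannot be told apart.

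Epithelial markers leaned towards the eutopic group through eutopic 2 and 3. Of 30 tested, 28 were higher, with a median of 0.75 log2 units, 3 at an unadjusted p under 0.05, where 2.55% of all features were higher at that threshold, and 2 without overlap, against 3.6% of all features. Cdh1, the gene of E-cadherin, read 0.37, 2.61 and 2.82 on eutopic arrays and 0.25, 0.64 and 0.35 on uterus arrays, a difference of 1.52 ± 0.56 (unadjusted p = 0.0166). Epcam, an epithelial adhesion gene, read 0.28, 2.55 and 1.63 in eutopic endometrium, against 0.52, 0.09 and 0.34 in uterus. For both genes eutopic 1 lay within the range of the uterus arrays, while eutopic 2 and 3 lay above it. Klf5, a transcription factor of epithelial cells, read 0.34, 1.63 and 0.39 and did not overlap with uterus at -0.70, -0.31 and -0.45. St14, a membrane serine protease gene, differed by 1.31 ± 0.52. The list's median was 1.11 within slide 2 and -0.01 within slide 3, and it was 1.18 without eutopic 1 and 0.33 without eutopic 2.

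Single pools also stood out, high or low, for single markers of other tissues. Adipoq, the gene of the fat cell hormone adiponectin, read 0.81, -4.76 and -3.43 on eutopic arrays and -3.74, -5.20 and -3.46 on uterus arrays. Cidec, which coats lipid droplets, read 1.46, -4.02 and -1.88 in eutopic endometrium, against -3.42, -3.71 and -3.15 in uterus, and the adipocyte lipid carrier gene Fabp4 read 2.04, -2.71 and -1.42, against -1.63, -1.94 and -1.68. All 3 stood out on eutopic 1, and on the PRCre lesion arrays they averaged 3.14, 4.01 and 4.93. Of 25 adipocyte markers, 21 were higher and 4 lower in eutopic endometrium, with summed levels of 6.36, 6.77 and 6.42 on eutopic arrays and 5.36, 5.98 and 6.05 on uterus arrays. The 2 members without overlap, where 3.6% of all features were higher in this way, were genes that many tissues use. Pnpla2, the lipase ATGL, read 1.38, 2.15 and 2.70 in eutopic endometrium, against 0.91, 1.19 and 1.00 in uterus, and Gpd1, glycerol-3-phosphate dehydrogenase, read 0.87, 2.04 and 1.04, against 0.79, -0.16 and -1.92 in uterus. The list's median of 0.68 was 0.17 without eutopic 1. Ovgp1, the oviduct glycoprotein gene, read 1.52, 6.28 and 1.66 in eutopic endometrium and 0.20, 0.88 and 1.91 in uterus, highest on eutopic 2. Its list did not follow: of 15 ovary and oviduct markers, 7 were higher and 8 lower. On eutopic 2 the median deviation of these markers from their own mean over the 6 arrays was -0.03. The haemoglobin gene Hba-a1 read 7.04, 3.68 and 7.42, against 5.80, 7.37 and 7.21 in uterus, so that eutopic 2 held the least of this red cell transcript. Whether cells of these tissues had a part in other differences was not tested.

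**Figure D2:**
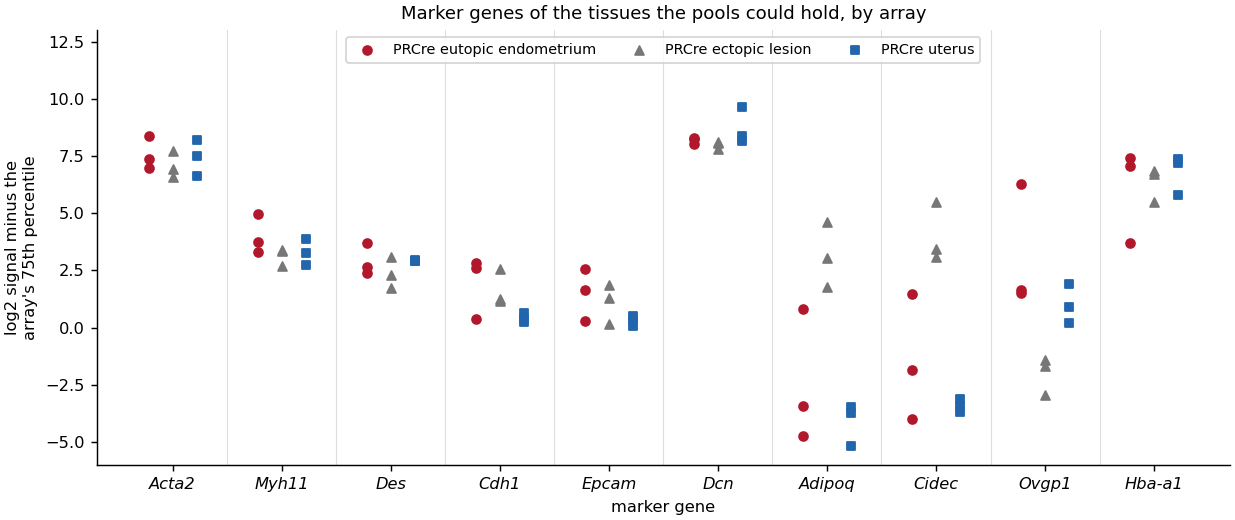
Levels (log2 signal minus the array's 75th percentile) of marker genes on the 3 PRCre eutopic (red circles), 3 PRCre lesion (grey triangles) and 3 PRCre uterus arrays (blue squares). Smooth muscle genes (Acta2, Myh11, Des) overlap between eutopic endometrium and uterus, Cdh1 and Epcam spread over the eutopic arrays, and a single eutopic array stands out for Adipoq, Cidec and Ovgp1.

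Genes that follow the hormone cycle varied within each group as much as between them, although every pool was labelled estrus. Lcn2, Muc1, Ihh, Cyp26a1, Prss29 and Spink1 were chosen after their values were seen and are given as levels. Ltf, the lactotransferrin gene and a standard oestrogen-induced transcript of mouse uterine epithelium, read 1.36, 8.08 and 6.45 on eutopic arrays, against 5.15, 2.48 and 1.59 on uterus arrays. Lcn2, which encodes lipocalin-2, read 1.94, 8.99 and 8.20 in eutopic endometrium and 6.71, 5.28 and 2.48 in uterus. The mucin gene Muc1 read -1.60, 3.83 and 3.53, against 1.69, 0.21 and 0.20 in uterus. All 3 were lowest on eutopic 1 and highest on eutopic 2, and in the uterus group highest on uterus 1. C3, the complement component gene that oestrogen induces in uterine epithelium, read 7.65, 9.53 and 8.50 in eutopic endometrium, against 7.95, 6.21 and 5.95 in uterus. Its difference of 1.85 ± 0.61 had the smallest p of the oestrogen-induced list (unadjusted p = 0.00885, adjusted p = 0.738), with 2.29 and 0.63 within slides 2 and 3. Of 32 oestrogen-induced genes tested, 23 were higher and 9 lower, the list's median was 0.37, and 0 had groups that did not overlap. That median was 1.33 without eutopic 1, -0.17 without eutopic 2, 0.66 without uterus 2 and 0.18 without uterus 3.

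Genes of the progesterone and hedgehog response were high in other pools. Ihh, the hedgehog ligand of the luminal epithelium, read 1.21, -2.60 and -4.75 on eutopic arrays and -4.42, -1.86 and 2.03 on uterus arrays. Gli1, a transcription factor and target of hedgehog signalling in the stroma, read 2.92, -0.41 and 0.89, against 0.78, 3.66 and 4.13 in uterus. Cyp26a1, which breaks down retinoic acid and is induced by progesterone, read 1.13, -2.35 and -5.73 in eutopic endometrium and -3.66, -2.55 and 0.80 in uterus. Ihh and Cyp26a1 were highest on uterus 3 and eutopic 1, the pools where Ltf was lowest in each group, and the water channel gene Aqp8 read 4.57, -1.16 and -0.27, against 4.70, 2.89 and 5.09 in uterus, lowest on eutopic 2 and 3. Over 26 progesterone-induced genes, 15 were higher and 11 lower, with a median of 0.11, and 0 reached an unadjusted p under 0.05. That median was -0.30 without eutopic 1, 0.32 without eutopic 2, 0.17 without eutopic 3, -0.31 without uterus 1, 0.17 without uterus 2 and 0.41 without uterus 3, was -0.46 and 0.81 within slides 2 and 3, and became -0.13 with normexp background correction, so the list has no settled direction. Gland secretions varied further: the serine protease gene Prss29 read 6.19, -3.34 and 3.53 in eutopic endometrium and -5.34, 6.96 and 3.15 in uterus, and the trypsin inhibitor gene Spink1 read 2.58, -4.70 and 2.78, against -2.93, 5.90 and 3.67. Both were lowest on eutopic 2 and uterus 1. Of 21 gland genes 10 were higher and 11 lower.

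**Figure D3:**
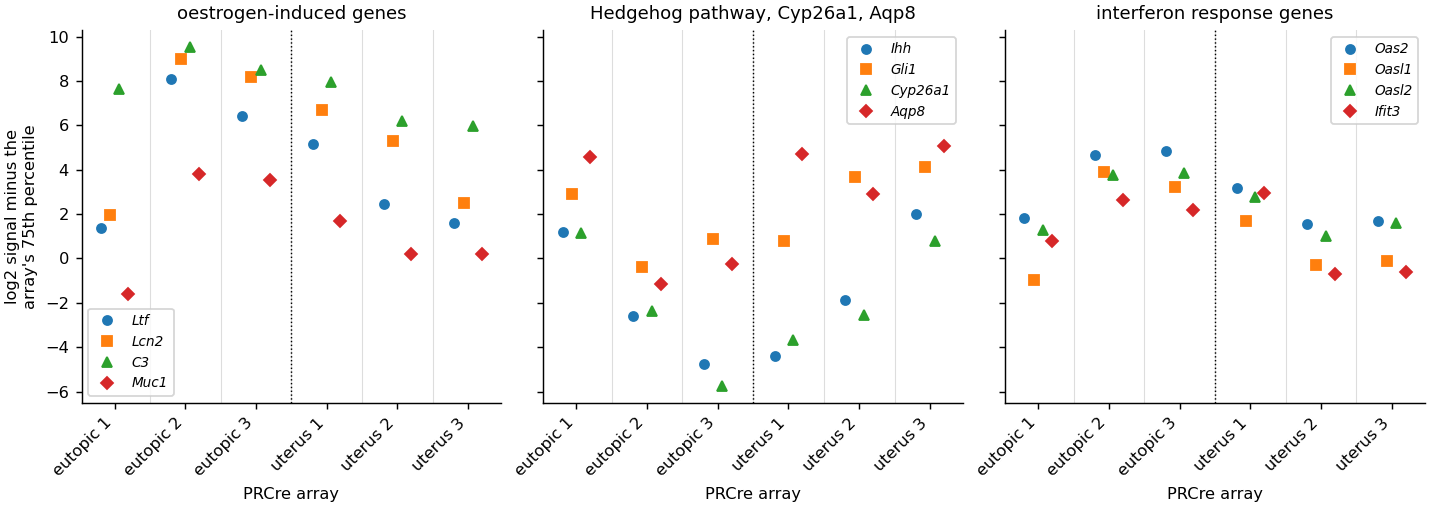
Levels (log2 signal minus the array's 75th percentile) on each of the 6 PRCre arrays, eutopic left of the dotted line and uterus right of it. Ltf, Lcn2 and Muc1 and the interferon genes are lower on eutopic 1 and on uterus 2 and 3 than on the other arrays, and Gli1 is higher there, and the groups overlap for every gene shown.

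Interferon response genes followed the same pools. Of 37 tested, 31 were higher and 6 lower in eutopic endometrium, by a median of 0.48, yet 0 reached an unadjusted p under 0.05 and 0 had groups that did not overlap. Oas2, an oligoadenylate synthetase that senses viral RNA, read 1.84, 4.68 and 4.82 on eutopic arrays and 3.19, 1.54 and 1.70 on uterus arrays, a difference of 1.64 ± 0.80 (unadjusted p = 0.0609). Oas3, of the same family, read -5.16, -0.73 and -1.66, against -2.89, -4.81 and -6.02 in uterus, and was well above background on 2 of 3 eutopic and 1 of 3 uterus arrays. Ddx58, the gene of the RNA sensor RIG-I, read 1.20, 2.89 and 2.37 in eutopic endometrium and 1.66, 1.1 and 1.65 in uterus. Eutopic 2, eutopic 3 and uterus 1 were the high arrays. As median deviations from each gene's mean over the 6 arrays, the list stood at -0.92, 1.00 and 0.72 on eutopic arrays and at 0.54, -0.80 and -0.51 on uterus arrays. Within slides the median was 1.49 on slide 2 and -0.49 on slide 3, and it was 1.15 without eutopic 1, 0.23 without eutopic 2, 0.28 without eutopic 3, 0.91 without uterus 1 and 0.26 without uterus 2.

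The promoter windows of Oas3 and Ddx58 are shown, picked by the size of their moderated t among list members that hold the motif searched. Each window is from RefSeq on build GRCm38.p6, 5′ to 3′ on the gene's strand, spanning the start site with most of its length upstream. Capitals mark matches to GAAA followed by any 2 bases and a further GAAA, the core of the element bound by interferon-activated factors, on either strand. Of 28 interferon list members with a window 14 (50%) held it, against 3.99% of 27025 genes with one. A match describes letters and not a bound site. The window of Oas3 lies at chr5:120777610-120777909, minus strand, and that of Ddx58 at chr4:40239776-40240075, minus strand.
Oas3: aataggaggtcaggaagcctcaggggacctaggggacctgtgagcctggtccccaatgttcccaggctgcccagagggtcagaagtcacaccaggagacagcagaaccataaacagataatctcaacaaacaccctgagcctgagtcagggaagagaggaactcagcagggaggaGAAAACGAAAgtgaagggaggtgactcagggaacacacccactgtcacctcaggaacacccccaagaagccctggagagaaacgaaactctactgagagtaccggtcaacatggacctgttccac
Ddx58: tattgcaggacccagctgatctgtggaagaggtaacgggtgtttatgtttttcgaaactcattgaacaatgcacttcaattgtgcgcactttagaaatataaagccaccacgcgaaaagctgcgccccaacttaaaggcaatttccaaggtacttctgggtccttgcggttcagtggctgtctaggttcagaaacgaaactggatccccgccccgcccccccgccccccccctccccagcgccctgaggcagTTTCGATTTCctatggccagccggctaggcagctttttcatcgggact

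Cell division genes leaned towards uterus, unevenly over the pools. Of 44 mitosis and spindle genes, 6 were higher and 38 lower in eutopic endometrium, by a median of -0.64, 3 of them (6.82%) at an unadjusted p under 0.05, where 4.13% of all features were lower, and 2 (4.55%) without overlap, where 6.43% of all features were. Kif11, the spindle motor Eg5, read -6.11, -5.62 and -3.33 on eutopic arrays and -3.46, -2.14 and -2.46 on uterus arrays, and was well above background on 1 of 3 eutopic and 2 of 3 uterus arrays. Ndc80, a kinetochore gene, read -6.57, -6.11 and -2.79, against -2.96, -3.26 and -3.48 in uterus. Eutopic 3 lay within the range of the uterus arrays for Kif11 and above it for Ndc80, while eutopic 1 and 2 were below it. Ttk, a checkpoint kinase gene, read -6.74 and -4.73 on eutopic 1 and 2, its spot on eutopic 3 was an outlier and was dropped, and it read -3.50, -3.64 and -0.73 in uterus. The lowest signals called above background were -4.58 on eutopic 1 and -5.30 on eutopic 2. Ndc80 lay below them on both arrays and Ttk on eutopic 1. With normexp background correction the differences of Kif11, Ndc80 and Ttk were -1.04, -0.73 and -1.31, against -2.34, -1.92 and -3.11 without it. Nuf2, another kinetochore gene, read -3.58, -2.95 and -1.36 in eutopic endometrium, against -1.27, -1.80 and -0.86 in uterus. The list's deviations were -1.10, -0.86 and 1.09 on eutopic arrays and 0.07, 0.06 and 0.93 on uterus arrays. Its median was -0.12 without eutopic 1, -0.32 without eutopic 2, -1.33 without eutopic 3 and -0.27 without uterus 3, and it was 1.1 within slide 2 and -0.87 within slide 3.

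DNA replication genes were likewise lower for 38 of 43, by a median of -0.34, with 7 (16.28%) that did not overlap with uterus, where 6.43% of all features were lower in this way, but only 1 (2.33%) at an unadjusted p under 0.05, where 4.13% were. Clspn, the gene of the checkpoint adaptor claspin, was not well above background on any eutopic array and was at least 2-fold lower, measured on 2 uterus arrays. Gins1 and Gins2, parts of the replicative helicase complex, read -1.92, -1.48 and -1.08 and -1.73, -1.5 and -0.68 on eutopic arrays, against -0.57, -0.67 and -0.61 and -0.65, -0.44 and -0.35 on uterus arrays. Rfc4, which helps load the polymerase clamp, read 0.97, 0.74 and 1.03 in eutopic endometrium and 2.14, 1.32 and 1.63 in uterus. Gins3, of the same helicase complex, read 3.39, 2.81 and 3.75, against 4.30, 3.96 and 3.52 in uterus, with overlap. The list's median was -0.09 with slide as a block, and it was -0.13 without eutopic 2, -0.58 without eutopic 3, -0.68 without uterus 1, -0.20 without uterus 2 and -0.16 without uterus 3. Gins2 was chosen after its values were seen.

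Windows of 3 of these genes are shown for the motifs of cell-cycle promoters. Capitals mark TTTGAA, the core of the cell-cycle homology region, in Kif11 and Ttk, and GCGGGAA, an E2F-type element, in Gins3, both strands searched. TTTGAA was in 26 of 36 mitosis genes with a window (72.2%), against 20.23% of all genes, and GCGGGAA in 16 of 35 replication genes (45.7%), against 5.29% of all genes. Kif11 lies at chr19:37376132-37376431, plus strand, Ttk at chr9:83834439-83834738, plus strand and Gins3 at chr8:95633309-95633608, plus strand, all from RefSeq on GRCm38.p6.
Kif11: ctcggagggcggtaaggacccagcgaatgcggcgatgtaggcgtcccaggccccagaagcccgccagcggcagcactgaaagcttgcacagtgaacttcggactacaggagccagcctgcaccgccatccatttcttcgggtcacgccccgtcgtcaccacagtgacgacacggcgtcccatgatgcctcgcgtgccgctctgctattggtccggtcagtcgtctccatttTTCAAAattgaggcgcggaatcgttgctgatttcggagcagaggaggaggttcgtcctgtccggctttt
Ttk: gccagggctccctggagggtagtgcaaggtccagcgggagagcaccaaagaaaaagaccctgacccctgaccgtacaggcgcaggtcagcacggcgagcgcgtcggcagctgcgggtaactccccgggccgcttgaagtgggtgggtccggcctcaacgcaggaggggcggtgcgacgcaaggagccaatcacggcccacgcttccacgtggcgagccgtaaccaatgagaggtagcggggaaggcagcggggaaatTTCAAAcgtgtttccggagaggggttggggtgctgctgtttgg
Gins3: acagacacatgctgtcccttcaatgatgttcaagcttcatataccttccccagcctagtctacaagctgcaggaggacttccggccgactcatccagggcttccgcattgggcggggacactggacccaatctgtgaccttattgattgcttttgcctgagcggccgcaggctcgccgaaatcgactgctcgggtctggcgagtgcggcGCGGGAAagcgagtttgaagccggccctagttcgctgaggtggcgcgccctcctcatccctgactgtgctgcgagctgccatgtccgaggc

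Nuclear genes of the mitochondrial respiratory chain were slightly lower on all 3 eutopic arrays. Of 34 tested, 28 were lower and 6 higher in eutopic endometrium, by a median of -0.24, 6 of them at an unadjusted p under 0.05 and 8 without overlap (background for lower, 4.13% and 6.43%). Cox6c, a subunit of cytochrome c oxidase, read 5.68, 5.35 and 5.93 on eutopic arrays and 6.93, 6.35 and 6.36 on uterus arrays, a difference of -0.89 ± 0.25 (unadjusted p = 0.00314, adjusted p = 0.738). Ndufa1, of complex I, read 4.81, 4.77 and 4.82, against 5.87, 5.07 and 5.16 in uterus, a difference of -0.57 ± 0.20. Both were highest on uterus 1, the dim array, and without it the Cox6c difference was -0.70 and the list's median -0.20. Ndufa2 (-0.63 ± 0.24), Ndufv2 (-0.64 ± 0.25) and Sdhb, of complex II (-0.59 ± 0.21), ran the same way. The deviations of the list were -0.20, -0.21 and -0.05 on eutopic arrays and 0.29, 0.00 and 0.12 on uterus arrays, and with those of adipocyte and T cell markers they were the 3 of 45 lists whose 2 groups of array values did not overlap. Deviations over all features with a symbol did not overlap either, at -0.027, -0.022 and -0.019 against 0.010, 0.036 and 0.015. How many lists would separate without a difference between the groups was not tested. Within slides the median was -0.05 and -0.55. With quantile normalization it was -0.14, with 23 lower and 11 higher. The differences of Cox6c, Ndufa1 and Sdhb were then -0.53, -0.32 and -0.33, so the size depends on the scaling.

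Of 40 glutathione and antioxidant genes, 20 were higher and 20 lower, with 5 of the lower ones (12.5%, against 4.13% of all features) and 0 of the higher at an unadjusted p under 0.05. Without overlap there was 1 each way (2.5%), less than the 6.43% lower and 3.6% higher over all features. The 5 were the peroxidase genes Gpx8 (-0.67 ± 0.28), Gpx7 (-0.72 ± 0.31), Gpx2 (-2.08 ± 0.89) and Gpx4 (-0.63 ± 0.29), and Prdx1 (-0.60 ± 0.26), a peroxiredoxin. With quantile normalization Gpx4 and Prdx1 differed by -0.36 and -0.28, and Gpx8, Gpx7 and Gpx2 by -0.60, -0.73 and -2.02. Gpx2 read 1.90, 2.92 and 1.34 on eutopic arrays, against 2.29, 4.28 and 5.82 on uterus arrays, with overlap and a wide spread in uterus. The inducible Hsp70 genes Hspa1a and Hspa1b were higher on all 3 eutopic arrays. Hspa1b read 1.67, 2.5 and 2.69 in eutopic endometrium and 1.33, 0.76 and 1.1 in uterus, a difference of 1.22 ± 0.40 (unadjusted p = 0.00838), and Hspa1a differed by 0.83 ± 0.29; the genes are near-identical copies, so their probes may share RNA. The mitochondrial chaperone gene Hspe1 was lower, at -0.71 ± 0.28. Over 34 heat shock and unfolded protein genes, 16 were higher and 18 lower.

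Among immune markers, those of natural killer and cytotoxic cells leaned towards uterus. Of 26 tested, 23 were lower and 3 higher in eutopic endometrium, by a median of -0.62, with 3 (11.54%) at an unadjusted p under 0.05 and 5 (19.23%) without overlap, where 4.13% and 6.43% of all features were lower. Klra4, of the Ly49 receptor family of natural killer cells, read 0.96, 0.59 and 1.17 on eutopic arrays and 2.87, 1.94 and 1.62 on uterus arrays, a difference of -1.24 ± 0.49 (unadjusted p = 0.0236). Klra9 read -1.65, -2.05 and -1.06, against 0.01, -0.49 and -1.53 in uterus, and Klra8 0.44, -0.33 and 1.12, against 1.80, 1.86 and 0.86; Ly49 genes are close copies whose probes can share RNA. Xcl1, a chemokine made by these cells, read 0.02, -0.46 and 0.57 in eutopic endometrium and 0.79, 1.1 and 1.1 in uterus, without overlap. Eutopic 2 was the lowest array for all 4, and the summed level of the list was 5.14, 4.47 and 5.45 on eutopic arrays and 5.52, 5.83 and 5.26 on uterus arrays. The list's median was -0.46 and -1.08 within slides. Other leucocyte lists had no settled direction or size. Markers of T cells were lower for 15 of 21 by a median of -0.07, which was 0.001 with median centring, and -0.18 without eutopic 1, -0.14 without eutopic 2, 0.04 without eutopic 3, 0.06 without uterus 1, -0.18 without uterus 2 and -0.15 without uterus 3. Those of macrophages and dendritic cells were lower for 22 of 34 by -0.10, which was 0.00 without eutopic 1, -0.38 without eutopic 2, 0.03 without eutopic 3, 0.10 without uterus 1 and -0.18 without uterus 3. Neutrophil markers were lower for 15 of 24 by -0.32, which was -0.07 without eutopic 1, -0.57 without eutopic 2, -0.01 without eutopic 3, -0.09 without uterus 1, -0.56 without uterus 2 and -0.53 without uterus 3. Among TNF and NF-kB response genes, 30 of 38 were higher, by a median of 0.29, with 0 at an unadjusted p under 0.05 and with eutopic 2 at 1.39 while eutopic 1 and 3 were at -0.37 and -0.41. The median of this list was 0.58 without eutopic 1, -0.31 without eutopic 2, 0.60 without eutopic 3 and 0.18 without uterus 2.

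Stromal markers were split, with 13 higher and 17 lower of 30. Beside Fbln1, Lum, the gene of the collagen-binding proteoglycan lumican, read 4.93, 4.69 and 5.34 on eutopic arrays and 6.90, 5.57 and 6.08 on uterus arrays, a difference of -1.20 ± 0.33 (unadjusted p = 0.00275). Vim, the vimentin gene of mesenchymal cells, read 4.70, 4.69 and 4.56, against 5.6, 5.16 and 5.33 in uterus. Both were lower on every eutopic array, and without uterus 1 the Lum difference was -0.84. They were the 2 of 30 stromal markers lower without overlap (6.67%), against 6.43% of all features. Higher without overlap was 1 (3.33%), against 3.6% of all features. Nt5e, the ecto-5′-nucleotidase CD73, read higher by 1.44 ± 0.64. Of 41 collagen genes, 22 were higher and 19 lower, with 0 at an unadjusted p under 0.05. Endothelial genes were lower for 20 of 35, by a median of -0.19 that was -0.57 without uterus 1 and changed sign without uterus 2 or uterus 3. Beside Clec14a, Ecscr, a surface gene of endothelial cells, read 1.33, 0.66 and 0.96 in eutopic endometrium, against 1.59, 1.74 and 1.75 in uterus, a difference of -0.71 ± 0.23. For the rest, such as Flt1, a VEGF receptor, at 1.92, 2.04 and 0.73 on eutopic and -0.64, 1.78 and 1.73 on uterus arrays, the groups overlapped.

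Patterning and growth factor genes held a few single members whose groups did not overlap. Higher in this way were 4 of 32 Hox genes (12.5%) and 3 of 29 IGF and EGF family genes (10.34%). For Wnt genes it was 1 of 44 (2.27%), and for all features 3.6%. Lower in this way were 1 Hox gene (3.1%), 3 Wnt genes (6.82%) and 0 IGF and EGF genes, against 6.43% of all features. The Wnt shares were thus near or below those of all features. Hoxb5 read -0.12, -0.01 and -0.15 on eutopic arrays and -1.12, -1.29 and -0.54 on uterus arrays, a difference of 0.89 ± 0.32, and Hoxb4 and Hoxa5 differed by 0.84 ± 0.35 and 1.02 ± 0.38, the last with eutopic 3 dropped as an outlier spot. These Hox genes encode transcription factors of position along the body axis. Of 32 Hox genes, 24 were higher and 8 lower, by a median of 0.35, which was 0.07 with normexp background correction. Wnt7b, a Wnt ligand gene of uterine epithelium, read 1.25, 2.10 and 1.56 in eutopic endometrium, against 0.13, -0.01 and -1.12 in uterus, a difference of 1.97 ± 0.69 (unadjusted p = 0.012). Wnt6, another ligand gene of the family, was lower by contrast, at -3.27, -4.59 and -3.61 on eutopic arrays and -2.46, -2.52 and -1.35 on uterus arrays (-1.71 ± 0.66). Erbb2, the receptor tyrosine kinase HER2, read 1.31, 2.15 and 2.04, against 0.89, 0.51 and 0.83 in uterus, a difference of 1.09 ± 0.35 (unadjusted p = 0.00795). Tgfa, a ligand of the related EGF receptor, was not well above background on any uterus array and at least 1.01-fold higher, measured on 2 eutopic arrays and brightest on eutopic 1. Over 44 Wnt genes, 22 were higher and 22 lower.

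Apoptosis genes held members in both directions, at shares near those of all features. Bcl2l1, which encodes the survival factor Bcl-xL, read 3.39, 2.99 and 3.55 on eutopic arrays and 2.5, 2.86 and 2.88 on uterus arrays, a difference of 0.56 ± 0.26 (unadjusted p = 0.0471). Bax, which opens the mitochondrial membrane during cell death, read 2.55, 2.83 and 2.51 in eutopic endometrium, against 3.16, 2.92 and 2.89 in uterus, a difference of -0.36 ± 0.19. Bad, which binds and blocks Bcl-xL, differed by -0.48 ± 0.20, and Cycs, the cytochrome c gene, by -0.74 ± 0.35. The groups did not overlap for these 4 genes, 1 higher (2.5%, against 3.6% of all features) and 3 lower (7.5%, against 6.43%) of 40, and over the list 26 were higher and 14 lower. Insr, the insulin receptor gene, was higher on all 3 eutopic arrays, at -1.52, -1.55 and -1.85, against -1.88, -2.24 and -1.97 in uterus. Of 24 motile cilia genes, 20 were higher, with 3 (12.5%, against 2.55% of all features) at an unadjusted p under 0.05, by a median of 0.37. That median was 0.03 with normexp background correction, and 0.15 without eutopic 2, 0.56 without eutopic 3, 0.56 without uterus 1 and 0.18 without uterus 3. Zmynd10, which takes part in assembling the motors of cilia, read -2.93, -2.12 and -4.63 in eutopic endometrium, against -5.47, -4.79 and -4.64 in uterus, and was well above background on 2 of 3 eutopic and 0 of 3 uterus arrays, so it was at least 1.74-fold higher.

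In complement, C6, of the terminal pathway, read lower on all 3 eutopic arrays at -5.20, -4.41 and -4.44, against -3.68, -3.25 and -3.80 on uterus arrays. On eutopic 1, eutopic 3 and uterus 1 it lay below the lowest signal called above background (-4.58, -4.29 and -3.49). The size of its difference is therefore not settled. The complement list was split at 15 higher and 15 lower. Of 38 cholesterol and fatty acid synthesis genes, 25 were higher and 13 lower, and of 36 glycolysis and hypoxia genes, 29 were higher and 7 lower, with 0 of the glycolysis genes at an unadjusted p under 0.05. Higher against lower members numbered 26 and 17 among BMP, activin and TGF-beta genes, 16 and 13 in the IGF and EGF family, 20 and 16 among matrix proteases, 22 and 11 in prostaglandin and steroid synthesis, 7 and 3 among aquaporins, and 10 and 8 among mesothelial markers. They numbered 21 and 26 among chemokines and their receptors, 15 and 11 among inflammasome genes, 16 and 15 among Fos, Jun and Egr early genes, and 14 and 19 among neural genes. Among markers of other cells they numbered 8 and 13 for B cells, 10 and 7 for eosinophils and mast cells, 4 and 7 for red cells, 7 and 10 for skeletal muscle, 7 and 8 for ovary and oviduct, 6 and 7 for intestine and pancreas, and 11 and 7 for squamous epithelium. The medians of the BMP, IGF and EGF, aquaporin, matrix protease, inflammasome, eosinophil, squamous and collagen lists changed sign with normexp background correction. Those of intestine and pancreas markers, heat shock genes, glutathione genes and Wnt genes changed sign with quantile normalization and with median centring.

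**Figure D4:**
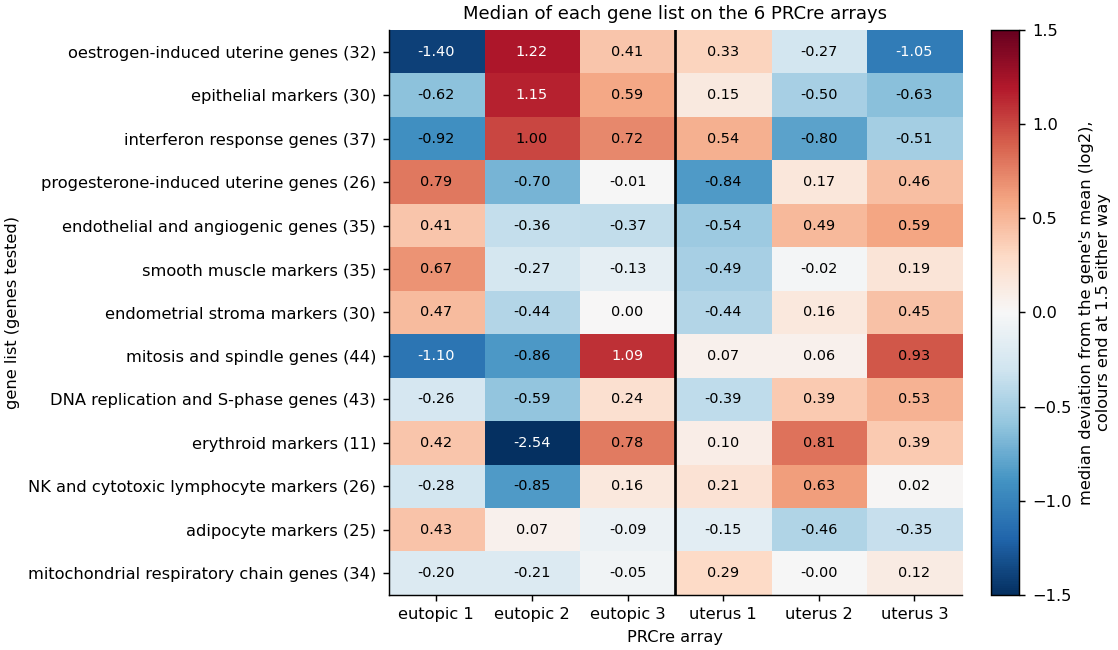
Median deviation (log2) of each list's genes from their own mean over the 6 PRCre arrays, eutopic arrays left of the line and uterus arrays right of it, with the number of genes tested in brackets. Oestrogen-induced, epithelial and interferon genes share a pattern that puts eutopic 2, eutopic 3 and uterus 1 above the others, and the respiratory chain genes are lower on all 3 eutopic arrays.

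The same step in the other genotype, ERBOE eutopic endometrium against ERBOE uterus, shares no array with this one and also called 0 of 33178 features, with 1090 at an unadjusted p under 0.05 (3.29%, 1.89% higher). The test of the difference between the genotypes called 0 features, none having an adjusted p below 0.942, and 1693 had an unadjusted p under 0.05 (5.1%). At that unadjusted threshold 2.84% of features had the more positive step in ERBOE, where 59.2% did at all. Of the 30 named genes, 14 had the same sign in ERBOE, 7 of the 15 higher and 7 of the 15 lower. Fbln1 differed by -0.06 ± 0.31 in ERBOE and Cx3cl1 by 0.07 ± 0.39, both with errors wider than the difference. Plppr5 was well above background on 3 ERBOE eutopic arrays and 1 ERBOE uterus array, and Cyp3a59 on 1 and 0, so no direction is read for these genes in ERBOE. Of the 1195 features higher on all 3 PRCre eutopic arrays, 47.4% were higher in ERBOE eutopic endometrium at all, against 57.6% of all features. Of the 2132 lower features, 54.1% were lower in ERBOE, against 42.4% of all features. In ERBOE the groups did not overlap in the same direction for 66 of the 1195 (5.52%, where 6.93% of all features were higher without overlap) and for 129 of the 2132 (6.05%, where 4.7% were lower without overlap).

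Mitosis genes leaned lower in eutopic endometrium in both genotypes, by medians of -1.40 in ERBOE, with 44 of 44 lower and 12 at an unadjusted p under 0.05 (1.4% of all features), and -0.64 in PRCre. Respiratory chain genes were lower for 31 of 34 in ERBOE, by a median of -0.21 close to that in PRCre, though 0 reached an unadjusted p under 0.05. Epithelial markers differed in direction, with a median of -0.51 in ERBOE and 0.75 in PRCre, and 8 of 30 had an unadjusted p under 0.05 for the difference between the genotypes (5.1% of all features). Interferon response genes were lower for 35 of 37 in ERBOE, by -0.44, and oestrogen-induced genes for 23 of 32, by -0.56. Natural killer markers were higher for 19 of 26 in ERBOE, by 0.18. None of the single genes in these lists passed the adjusted test of the difference.

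**Figure D5:**
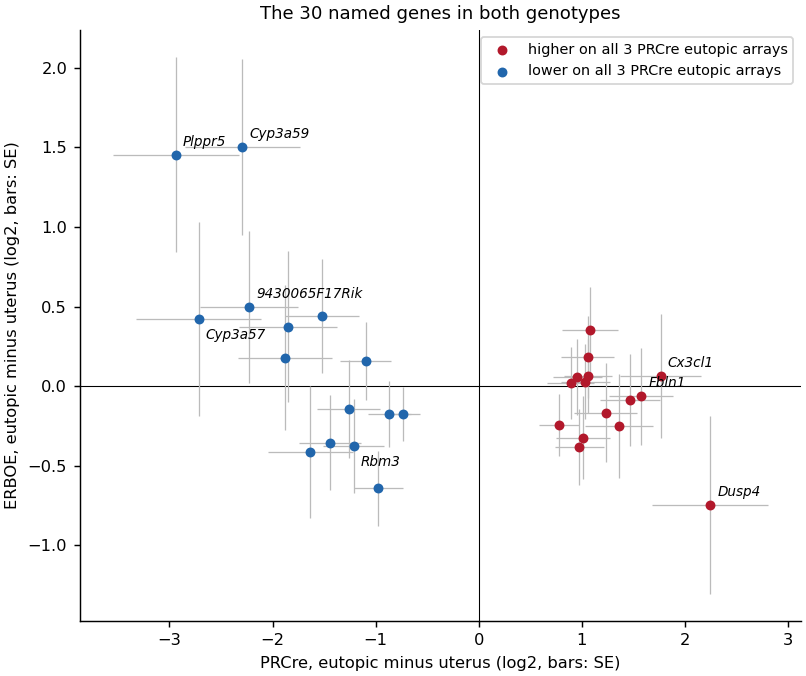
Eutopic minus uterus difference (log2, bars are limma SE) of the 30 named genes in PRCre (horizontal) and ERBOE (vertical), red for genes higher and blue for genes lower on all 3 PRCre eutopic arrays. Genes were chosen on the horizontal axis, and in ERBOE they lie on both sides of 0. Plppr5 and Cyp3a59 rest there on arrays that were in part not well above background.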

How the data were processed

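RNA of 18 pools was labelled (600 ng of cRNA from 25 ng of total RNA, per the labels) and hybridised to 1-colour Agilent mouse arrays. Per the file headers, the authors' Feature Extraction software gave background-subtracted, detrended spot intensity on an mm9 grid, not normalized between arrays. The table of values the authors deposited is on a log2 scale and centred for each probe. After the same centring the scaled scanner values of each array correlated with it over features at 0.99999 to 1, so its sign is the same. Such a correlation ignores a constant added to an array, so it cannot show which percentile the authors subtracted. The median PRCre difference of all features was -0.0144 with the table, against -0.0344 with the scaled scanner values. Further steps of the authors are not given in the sources used here.

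Control spots and outlier-flagged spots were left out, log2 of the processed intensity was taken, and each array's 75th percentile was subtracted. Spots of a probe were averaged, and the brightest probe stood for a symbol. Symbols came from the RefSeq table of GRCm38.p6, which named 32994 of 56605 probes, and 0 probes had several symbols. A probe was tested if well above background on 3 of 18 arrays, which left 33178 features, 17901 with a symbol. limma 3.58.1 in R 4.3.3 fitted 6 group means over 18 arrays with moderated 2-sided tests (12 residual and 2.49 prior degrees of freedom) and Benjamini-Hochberg adjustment over all features. An exact permutation test of 3 against 3 arrays cannot go below 0.1, so none is given. The p-values measure the spread between pools of animals. Normal, independent simulated noise was used for the test on simulated data, which gave 11 false calls beside 200 shifted features.

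The members and the 45 gene lists were chosen with earlier results of these data known, and no set test or adjustment over a list was made. Named genes were Esr1, Esr2 and Pgr, the 15 symbols each way with the smallest p among those whose groups do not overlap, and up to 5 members of each list by moderated t; others are said to be chosen after seeing values or are markers of a tissue. Alternatives were normexp background correction (offset 50, on the median signal and local background, since a mean signal column was not used here), quantile and median scaling, 2 other detection filters, only the arrays of the genotype, slide and replicate blocks, values within slides, array weights, trended robust variance, the value table, the mean of a gene's probes, and leaving out each array.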

Additional observations from a re-analysis of the deposited data

Results flagged for a closer look

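Of the genes considered for naming, 4 had groups that did not overlap in PRCre and did not overlap in the opposite direction in ERBOE. Over all features, this held for 81 of the 1195 higher without overlap in PRCre (6.78%) and for 100 of the 2132 lower (4.69%). The 4 genes are thus examples of a pattern found among features at large. None of the 4 passed the adjusted test of the difference between the genotypes (limma adjusted p = 0.942 for each). Wnt6 read -3.27, -4.59 and -3.61 in PRCre eutopic endometrium and -2.46, -2.52 and -1.35 in PRCre uterus, while it read -3.75, -0.94 and -3.54 in ERBOE eutopic endometrium and -4.38, -5.73 and -4.17 in ERBOE uterus, and the differences differed by 3.73 ± 0.94 (ERBOE minus PRCre, SE). C9, the gene of a terminal complement component, read -4.31, -4.73 and -6.47 in PRCre eutopic endometrium, against -3.84, -4.28 and -3.45 in PRCre uterus, and -4.41, -2.61 and -4.64 in ERBOE eutopic endometrium, against -6.95, -6.48 and -5.81 in ERBOE uterus, a difference of 3.84 ± 0.96. It was not well above background on any ERBOE uterus array, so its values there are only bounds. The RIKEN gene 9430065F17Rik read -4.12, -3.57 and -3.92 in ERBOE eutopic endometrium and -4.31, -4.40 and -4.38 in ERBOE uterus, a difference of 2.73 ± 0.68 from the PRCre step. Tm7sf2, a sterol reductase gene of cholesterol synthesis, ran the other way round, at 0.57, 0.24 and 0.69 in PRCre eutopic endometrium, against -0.24, -0.17 and 0.06 in PRCre uterus, and at 0.73, 0.46 and 0.85 in ERBOE eutopic endometrium, against 1.46, 1.68 and 1.06 in ERBOE uterus, a difference of -1.34 ± 0.35. In its list, 31 of 38 cholesterol and fatty acid synthesis genes were lower in ERBOE eutopic endometrium, while 25 of 38 were higher in PRCre eutopic endometrium.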

How the results depend on the processing

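The count of 0 features in PRCre became 1 with normexp background correction, a lower probe with no symbol (-1.43, limma adjusted p = 0.024), and was 0 under the other scalings, filters, blocks, weights and variance settings, where the smallest adjusted p ran from 0.181 with slide as a block to 0.997 with only the arrays of the genotype. Over single PRCre arrays left out, the count ran from 0 to 2. Without uterus 1 it was 2, Plekhd1os (-4.17) and 4930503H13Rik (-1.742), without uterus 2 it was 1 lower probe with no symbol (-5.29), and without eutopic 1 it was 1, Myf6 (4.20). The counts in ERBOE and for the difference between the genotypes were 0 under each setting run. At an unadjusted p under 0.05, normexp gave 4883 PRCre features, 4178 of them lower, with a median of all features of -0.20, leaving out the filter on dim probes gave 2647 lower of 3425 with a median of -0.19, slide as a block gave 3125, and only the arrays of the genotype gave 1106.

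Named genes followed here were the receptors and genes chosen in this same comparison, by groups without overlap or an unadjusted p under 0.05. Few changes of sign therefore follow from the choice itself. Of 1178 values of 86 named genes under settings other than leaving out an array, 12 changed sign. With normexp these were Bmp6 (-0.154), Esr1 (0.011) and Rfx2 (-0.075), with slide as a block Esr1 (0.028), and with the deposited value table Klri2 (0.178). Within slide 2 they were Drc1 (-0.246), Esr1 (0.212), Ndc80 (0.473) and Pln (-0.021), and within slide 3 Gpx2 (0.119), Nt5e (-0.066) and Pgr (0.153). Of 516 values with an array left out, 1 changed sign, Esr1 without eutopic 2 (0.169), whose values with an array left out ran from -0.255 to 0.169. The cause was not tested. Values within slides have no test. A count of sign changes leaves out changes of size. With normexp the differences of Dusp4, Crybg2, Gm11696 and Tgfa were 0.50, 0.60, 0.31 and 0.165, against 2.245, 1.469, 1.079 and 1.945 without it. Those of the brighter Fbln1 and Cx3cl1 were 1.615 and 1.641, against 1.574 and 1.764. Medians of the 45 lists, not chosen by this rule, changed sign for 7 to 13 lists with a PRCre array left out.

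With the replicate block the PRCre count was 0, with 2226 features at an unadjusted p under 0.05, against 2215 without it, and the ERBOE and difference counts were 0. Same-numbered PRCre pools did not deviate together (r = -0.262, -0.247 and -0.183), so the numbers were not taken to pair them. With 3 pools a group, most shifts of 1 log2 unit were missed in the simulation, and genes below background carry only bounds. Slide, surgery and the dim uterus 1 array limit what the groups can show.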
